A study of Mus musculus with 4 samples.

Results

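Cyclin-dependent kinase inhibitors, D-type cyclins and the kinases they act on were followed in 4 single-cell libraries of mouse bone marrow. The 10 genes were taken by symbol from the 32285 genes of the deposited feature lists. They were the Cip/Kip inhibitors Cdkn1a, Cdkn1b and Cdkn1c, the INK4 inhibitors Cdkn2c and Cdkn2d, the cyclins Ccnd1, Ccnd2 and Ccnd3, and the kinases Cdk4 and Cdk6. All 10 were present in every library.

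D cyclins bind Cdk4 or Cdk6, and the active pair phosphorylates the retinoblastoma protein, which frees E2F factors and lets a cell pass from G1 into S phase. INK4 proteins bind Cdk4 and Cdk6 and keep D cyclins from activating them, while Cip/Kip proteins bind a wider range of cyclin-kinase pairs. In marrow these genes are known for setting how often stem cells divide and for the proliferation bursts of B-cell progenitors, where Ccnd3 has a known role in pre-B cell expansion.

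The cells were CD45.2+ and Kit+ bone marrow cells taken 10 weeks after transplantation, stained with barcoded antibodies and read with 10x Genomics 3′ version 3.1 chemistry. The groups were a control and cells labelled as deleted for Mll3, for Mll4 or for both, with 1 library each. Mll3 and Mll4 are the histone methyltransferases encoded by Kmt2c and Kmt2d. The driver and timing of the deletion, the exons removed, and the strain, sex and number of donors are not given in the sources used here.

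There were 7146 kept cells in control, 5860 in the library labelled Mll3, 5350 in the one labelled Mll4 and 6917 in the one labelled Mll3/4, with median depths of 15754, 16963.5, 5142 and 9965 unique molecular identifiers (UMIs) per cell. Between 9 and 24 barcodes were shared by any pair of libraries. Kit stood at 104.6 to 189.8 CPM, the usual scaling of UMIs to a common total, and 74.1 to 95.9% of cells were above the CD117 antibody threshold, CD117 being the protein of Kit. Where 4 values follow each other below, they are in the order control, Mll3-, Mll4- and Mll3/4-labelled. Kmt2c was at 47.9, 27.2, 59.2 and 34.8 CPM and Kmt2d at 25.8, 21.6, 25.0 and 24.7 CPM. Kmt2d did not follow its labels. A 3′ tag can survive the loss of exons upstream of it, so this checks nothing, and the libraries are named by their labels throughout. Xist was at 0.519 CPM in the Mll4-labelled library and at 955 to 1839 CPM in the others, so sex cannot be told apart from the label there. With 1 library per group nothing below was tested between conditions, and every 95% interval covers counting error only.

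The makeup of the libraries set the frame for all comparisons. B-cell progenitor-like cells made up 6.59, 6.30, 2.67 and 98.7% of the kept cells, which is 471, 369, 143 and 6830 cells. HSC/MPP-like cells, the stem and multipotent progenitor class, numbered 1442, 1035, 552 and 12. No class other than the B-cell progenitor-like one held 50 cells in the Mll3/4-labelled library, so that library was compared with control over all cells and within this class alone. Its B-cell progenitor-like cells, all but 5, lay in clusters 21 to 25, while those of the other libraries, all but 3, lay in clusters 0 and 15. A cluster filled by 1 library may be that library and not a kind of cell.

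Promoter sequences are shown for 2 members that set the contrast described below: Ccnd3, the D cyclin with the most UMIs in B-cell progenitor-like cells, and Cdkn1b, the inhibitor with the most UMIs there in control. Each is the 250 bases before the gene start in RefSeq on GRCm38.p6, read 5′ to 3′ on the strand of the gene. The windows are chr17:47504801-47505050 (+ strand) for Ccnd3 and chr6:134920151-134920400 (+ strand) for Cdkn1b. Capitals mark the GC box (GGGCGG, which reads CCGCCC on the other strand) and the FOXO motif (GTAAACA, which reads TGTTTAC on the other strand).
Ccnd3: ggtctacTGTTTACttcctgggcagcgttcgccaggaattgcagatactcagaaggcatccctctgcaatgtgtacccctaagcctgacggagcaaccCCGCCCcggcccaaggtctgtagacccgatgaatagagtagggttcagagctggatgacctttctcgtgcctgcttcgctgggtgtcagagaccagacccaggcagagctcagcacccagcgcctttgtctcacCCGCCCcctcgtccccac
Cdkn1b: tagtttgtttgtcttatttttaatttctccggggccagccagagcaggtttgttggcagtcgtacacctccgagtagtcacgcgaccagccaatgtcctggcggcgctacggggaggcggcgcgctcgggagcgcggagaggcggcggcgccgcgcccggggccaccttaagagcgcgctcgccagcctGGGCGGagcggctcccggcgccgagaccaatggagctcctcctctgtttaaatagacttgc
RefSeq gave such a window for 7 of the 10 members. Ccnd3 held 1 FOXO match and 2 GC boxes, and Cdkn1b held 1 GC box. Among 32851 promoter windows of the same length, 32.7% held the GC box and 3.17% the FOXO motif, counted on both strands. The E2F motif in the forms TTTCCCGC and TTTGGCGC had no match in any of the 7 members and was in 0.895% and 0.417% of all windows. The E-box CACGTG (6.02% of windows) was found 4 times before Cdk4 and 1 time before Cdk6. These matches describe the letters of the windows and are not binding sites.

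In the control library the inhibitors followed cell class. Levels are UMIs summed over the cells of a class and scaled to CPM. A UMI stands for 1 captured 3′ end, so no correction for gene length was made. Cdkn1a, the p21 inhibitor known as a p53 target (ENSMUSG00000023067, GRCm38 chromosome 17 from 29090976 to 29100727), was highest in B-cell progenitor-like cells at 49.7 CPM (42.2 to 58.0). The next classes were neutrophil-like at 17.5 CPM, basophil/mast cell-like at 15.5 and HSC/MPP-like at 13.8, whose intervals overlap from 1 to the next. Megakaryocyte-like and erythroid progenitor-like cells were lowest among classes with a UMI, at 4.66 and 4.46 CPM, and also overlap.

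Cdkn1b, the p27 inhibitor of cyclin E and cyclin A complexes (ENSMUSG00000003031, chromosome 6 from 134920401 to 134925513), spanned a 7.70-fold range. It stood at 201 CPM in B-cell progenitor-like and 166 in T/NK/innate lymphoid-like cells, whose intervals overlap, and at 119.7 in basophil/mast cell-like, 107 in neutrophil-like and 69.5 in HSC/MPP-like cells. Granulocyte progenitor-like, monocyte/macrophage progenitor-like and erythroid progenitor-like cells were lowest at 26.1 to 28.4 CPM and could not be separated. Cdkn1b made up 69.6% of the Cip/Kip UMIs of the HSC/MPP-like class and 79.2% of those of B-cell progenitor-like cells.

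Cdkn1c, the imprinted p57 inhibitor known for holding blood stem cells in quiescence (ENSMUSG00000037664, chromosome 7 from 143458339 to 143461050), was the most restricted member. HSC/MPP-like cells had 16.4 CPM (14.8 to 18.2). Megakaryocyte-like cells followed at 4.59 CPM and B-cell progenitor-like cells at 3.14 CPM (1.51 to 5.78), and these 2 overlap. Erythroid progenitor-like and granulocyte progenitor-like cells had 0.181 and 0.160 CPM, and monocyte/macrophage progenitor-like cells had no UMI, which allows up to 0.516 CPM by the limit of 3 UMIs used for counts of 0. The gene lies across the antisense transcript Gm44732, and whether counting used strand is not given in the sources used here.

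The INK4 genes were highest, within control, in the neutrophil-like and B-cell progenitor-like classes. Cdkn2c, which encodes p18 (ENSMUSG00000028551, chromosome 4 from 109660876 to 109667189), was at 107 CPM in B-cell progenitor-like and 96.5 in neutrophil-like cells, with overlapping intervals, and at 18.5 to 37.9 CPM in the other 7 classes. Cdkn2d, which encodes p19 of the INK4 family (ENSMUSG00000096472, chromosome 9 from 21288410 to 21291407), was at 333 CPM in neutrophil-like, 187 in B-cell progenitor-like and 91.5 in megakaryocyte-like cells. It was lowest in erythroid progenitor-like cells at 19.3 CPM, a 17.3-fold range.

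The D cyclins divided the classes between them. Ccnd1 (ENSMUSG00000070348, chromosome 7 from 144929931 to 144939925) was highest in HSC/MPP-like cells at 56.5 CPM, and megakaryocyte-like (46.6) and monocyte/macrophage progenitor-like cells (45.7) came next and could not be separated from each other. Ccnd2 (ENSMUSG00000000184, chromosome 6 from 127125162 to 127152193) ranged over 100.3-fold, from 406 CPM in T/NK/innate lymphoid-like and 289.8 in megakaryocyte-like cells to 84.5 in B-cell progenitor-like and 4.05 in neutrophil-like cells. Ccnd3 (ENSMUSG00000034165, chromosome 17 from 47505051 to 47599691) was highest where Ccnd2 was lowest, at 456 CPM in B-cell progenitor-like and 329 in neutrophil-like cells, against 80.9 in HSC/MPP-like cells. Of all D cyclin UMIs, Ccnd3 took 98.4% in neutrophil-like cells, 83.9% in B-cell progenitor-like and 22.1% in HSC/MPP-like ones, where Ccnd2 took 62.5% and Ccnd1 15.4%. Bysl overlaps Ccnd3 and LTO1 overlaps Ccnd1 on the opposite strand, and antisense transcripts overlap Ccnd2.

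Both kinases were lowest in neutrophil-like cells among the 9 control classes of at least 50 cells. Cdk4 (ENSMUSG00000006728, chromosome 10 from 127063534 to 127067920) was at 378 CPM in erythroid progenitor-like cells, 285 in HSC/MPP-like, 199.9 in B-cell progenitor-like and 25.8 in neutrophil-like cells. Cdk6 (ENSMUSG00000040274, chromosome 5 from 3341485 to 3531008) was at 559 CPM in basophil/mast cell-like, 483 in megakaryocyte-like and 411 in HSC/MPP-like cells. Cdk6 stood at 179 CPM in B-cell progenitor-like and 39.5 in neutrophil-like cells. Tspan31 overlaps Cdk4 and 2 antisense transcripts overlap Cdk6. The heat map of the control classes shows these patterns side by side.

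**Figure D1:**
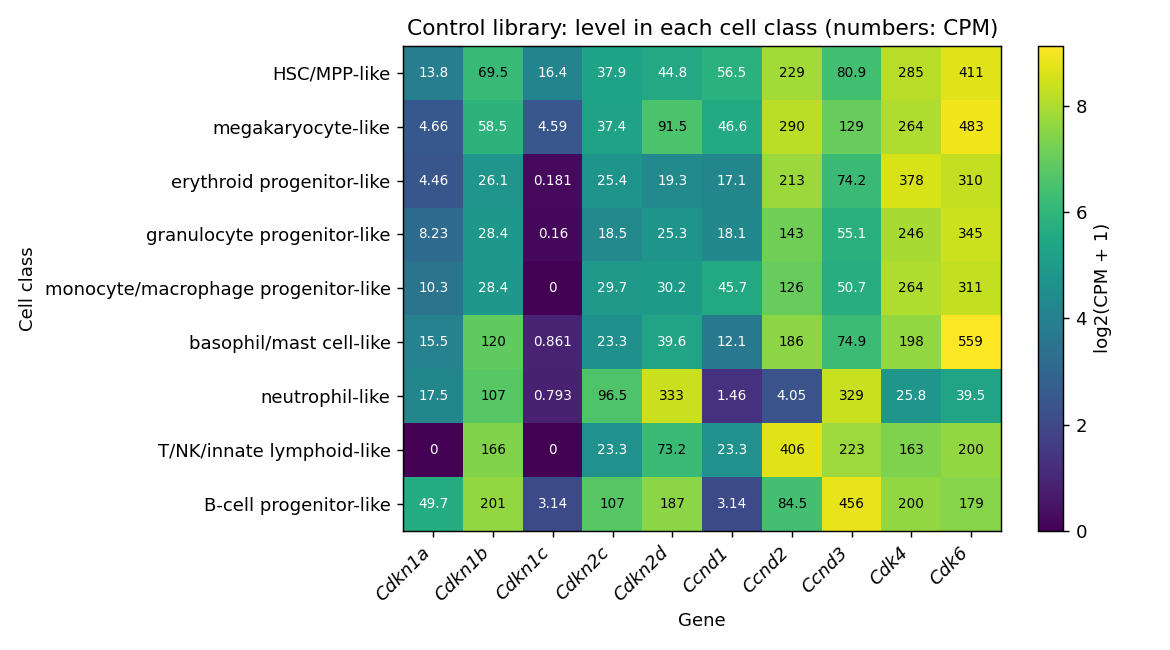
Level of each of the 10 genes (columns) in the 9 control cell classes with at least 50 cells (rows), with CPM printed in each cell and log2(CPM + 1) as colour. Cdkn1c is highest in HSC/MPP-like cells at 16.4 CPM, and neutrophil-like cells combine high Cdkn2d (333 CPM) and Ccnd3 (329 CPM) with low Ccnd2, Cdk4 and Cdk6.

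Over all cells, the Mll3/4-labelled library had more of 4 inhibitors and less of 2 cyclins and 1 kinase than control. Ratios are log2 of CPM + 1 over control, and a gene was counted as at least 2-fold apart where this ratio was 1 or more in size and either sum held 20 UMIs. By that rule 7 of 10 members were apart, 4 higher and 3 lower. Of the 15158 genes measured 23.6% were apart, 12% higher and 11.7% lower. Fewer cells of a class and less RNA per cell cannot be told apart in these sums, and the makeup of the library differs from control as given above.

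Cdkn2c was at 40.5, 37.4, 85.1 and 236 CPM. The Mll3/4-labelled value is far outside the other 3, with a log2 ratio of 2.52 (2.47 to 2.56). Cdkn1b was at 52.5, 44.9, 64.5 and 200.2 CPM, with a ratio of 1.91 (1.87 to 1.95) in the last. Cdkn1a was at 9.37, 8.71, 9.09 and 31.8 CPM, so the Mll3/4-labelled library alone stood apart, by 1.66 (1.57 to 1.75). Cdkn1c was at 3.01, 1.97, 3.02 and 18.0 CPM, and the ratio was 2.24 (2.12 to 2.36). Cdkn2d went against the other inhibitors, with 82.7, 64.6, 117 and 52.8 CPM and a ratio of -0.64, or -1.41 in cells thinned to 2000 UMIs.

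Ccnd1 was at 23.6, 17.3, 18.1 and 1.89 CPM, a log2 ratio of -3.09 (-3.25 to -2.93). Ccnd2 was at 178, 136, 150.4 and 33.8 CPM, with a ratio of -2.36. Cdk6 was at 299, 279, 235 and 99.1 CPM, with a ratio of -1.58. Ccnd3 was at 125, 112, 223 and 179.9 CPM, with a ratio of 0.52, and Cdk4 was at 279, 283, 178 and 213 CPM, with a ratio of -0.39. Ccnd3 rather than Ccnd2 was the main D cyclin of the Mll3/4-labelled library, with 83.4% of D cyclin UMIs against 38.4% in control.

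**Figure D2:**
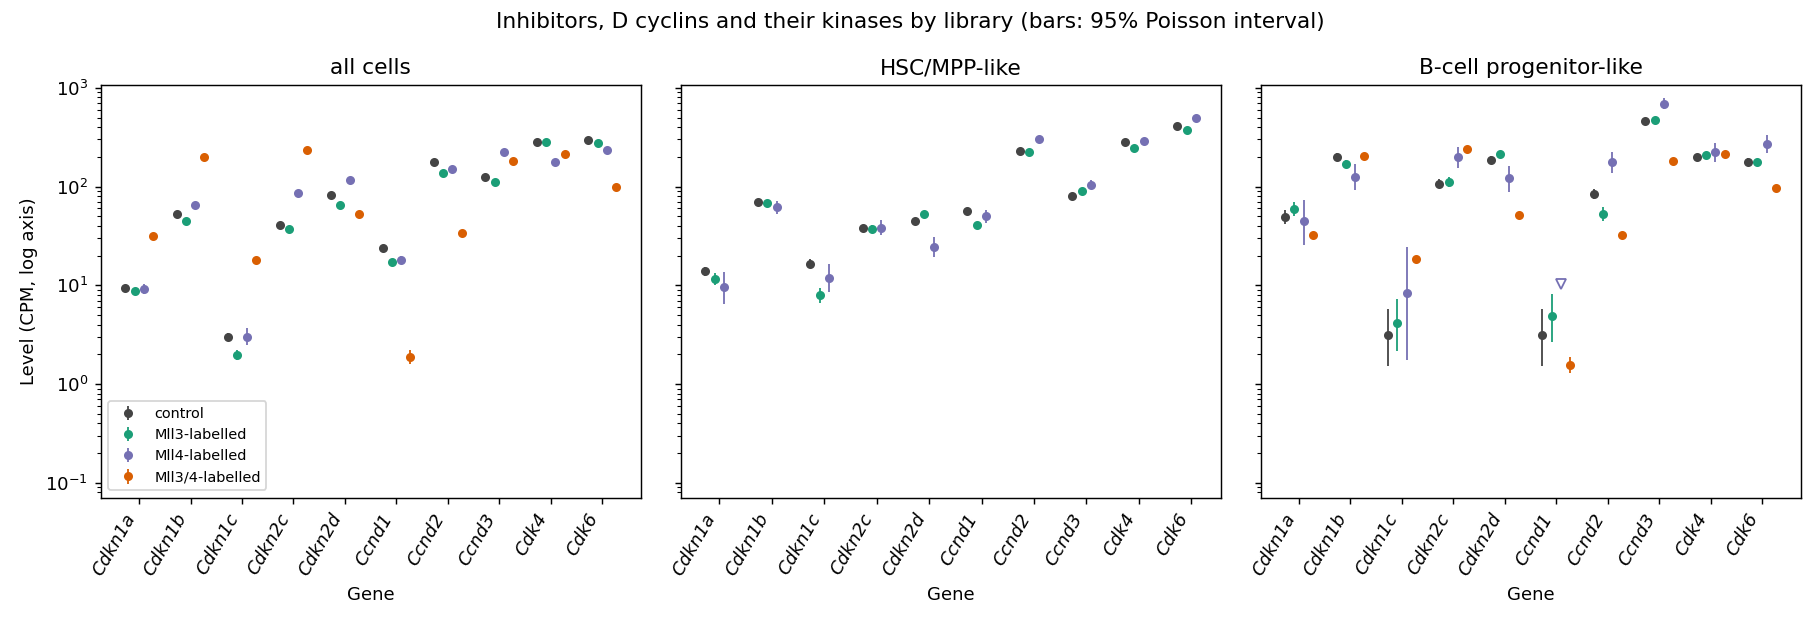
Level of each gene (CPM, log axis) in each library over all cells, in HSC/MPP-like cells and in B-cell progenitor-like cells, with 1 point per library, bars for 95% Poisson intervals and an open triangle at the upper Poisson limit where no UMI was counted. Over all cells Cdkn2c reaches 236 CPM in the Mll3/4-labelled library against 40.5 in control, while within B-cell progenitor-like cells Ccnd3 is at 180.2 CPM against 456.

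Within B-cell progenitor-like cells the picture differed from that over all cells. Here 5 of 10 members were at least 2-fold apart between the Mll3/4-labelled library and control, Cdkn1c and Cdkn2c higher and Cdkn2d, Ccnd2 and Ccnd3 lower. Of the 13456 genes measured 16.8% were apart, 9.45% higher and 7.39% lower. The median ratio of the 10 members was -0.65, and that of all genes measured 0.02. The median depth of these cells was 4389 UMIs for control and 9936 for Mll3/4-labelled cells. The 10 markers that name the class summed to 14831, 12603, 9794 and 12584 CPM, with none at 0 in any library. The 6 markers of lymphoid-primed progenitors summed to 1338, 1351, 1662 and 759.6 CPM, led by Dntt at 1239.5 CPM in control and 659.7 CPM in Mll3/4-labelled cells. Whether these cells are at the same stages in both libraries was not resolved, and a difference in stage cannot be told apart from the label in the values below.

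Cdkn2c was at 107, 111, 199 and 241 CPM, with a ratio of 1.16 (1.01 to 1.32) for the Mll3/4-labelled cells. The Mll4-labelled value rests on 71 UMIs, and its interval of 156 to 251 CPM overlaps that of the Mll3/4-labelled library. Cdkn1b, by contrast, was at 201, 168, 126 and 203 CPM, with a Mll3/4-labelled ratio of 0.02 (-0.10 to 0.13) where it had been 1.91 over all cells. Cdkn1a was at 49.7, 59.4, 44.9 and 32.4 CPM. Its ratio was -0.60 (-0.83 to -0.38) where it had been 1.66 over all cells, and it was 0.16 in cells thinned to 2000 UMIs. Neither of these Cip/Kip genes had a ratio interval above 0 within the class at full depth, although both were more than 3-fold higher over all cells.

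Cdkn1c was at 3.14, 4.17, 8.42 and 18.4 CPM, on 10, 12, 3 and 1395 UMIs. The ratio of levels was 5.85 (3.17 to 12.2) for the Mll3/4-labelled library. Its interval of 17.4 to 19.4 CPM there overlaps the 14.8 to 18.2 CPM of HSC/MPP-like control cells. In cells thinned to 2000 UMIs, 3.47% of Mll3/4-labelled B-cell progenitor-like cells had a Cdkn1c UMI (3.04 to 3.93) against 0.454% in control (0.0550 to 1.63), and unthinned the shares were 15.2% and 1.91%. Control neutrophil-like cells, which are not expected to express the gene, had 0.285% thinned and 1.01% unthinned at a median depth of 13536.5 UMIs. The control share in the B-cell progenitor-like class overlaps that background. The 9 HSC/MPP markers summed to 51.5, 53.8, 70.2 and 145.8 CPM in this class, so highest in Mll3/4-labelled cells. There Procr alone was at 0, Mllt3 led with 57.2 CPM, and Hlf and Mecom had 8 and 14 UMIs (0.105 and 0.184 CPM). Meis1, Ly6a, Pdzk1ip1, Fgd5 and Ctnnal1, the other markers of the list, held the rest, which is the larger part of the sum. The part of stem cells or of these genes in the Cdkn1c value was not tested.

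Cdkn2d was at 187, 213, 121 and 51.5 CPM. The last lies below the other 3 intervals, with a ratio of -1.84 (-1.96 to -1.71). The INK4 genes thus went opposite ways in this class. Neutrophil-like cells hold the most Cdkn2d, and their 9 markers summed to 2436, 1793, 6358 and 78.1 CPM in the B-cell progenitor-like class, led by S100a9, with Mmp8 at 0 in each library but the Mll3/4-labelled one. The control sum is 0.651% of that in control neutrophil-like cells. Subtracting that share of the neutrophil-like profile removed 2.17 CPM of Cdkn2d and 2.14 CPM of Ccnd3 in control.

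Ccnd3 was at 456, 475, 691 and 180.2 CPM. The Mll3/4-labelled value is lowest and the Mll4-labelled one highest, with no overlap between these and control. The Mll3/4-labelled ratio was -1.34 (-1.41 to -1.26), opposite in sign to the 0.52 over all cells. Ccnd2 was at 84.5, 52.8, 177 and 32.0 CPM, with a ratio of -1.37 (-1.55 to -1.19). Ccnd3 took 83.9% of the D cyclin UMIs of the pooled class in control and 84.3% in Mll3/4-labelled cells, with overlapping intervals. Ccnd1 was near its floor, at 3.14 and 4.86 CPM in the first 2 libraries and 1.56 CPM in the Mll3/4-labelled one, and it had no UMI in the Mll4-labelled one, which allows up to 8.42 CPM.

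The kinases split as well. Cdk4 was at 199.9, 209, 222 and 214 CPM, and all 4 intervals overlap. Cdk6 was at 179, 176, 272 and 95.8 CPM, and the Mll3/4-labelled ratio of -0.89 (-1.01 to -0.77) stayed within 2-fold. The plot of ratios sets the all-cell and within-class values side by side.

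**Figure D3:**
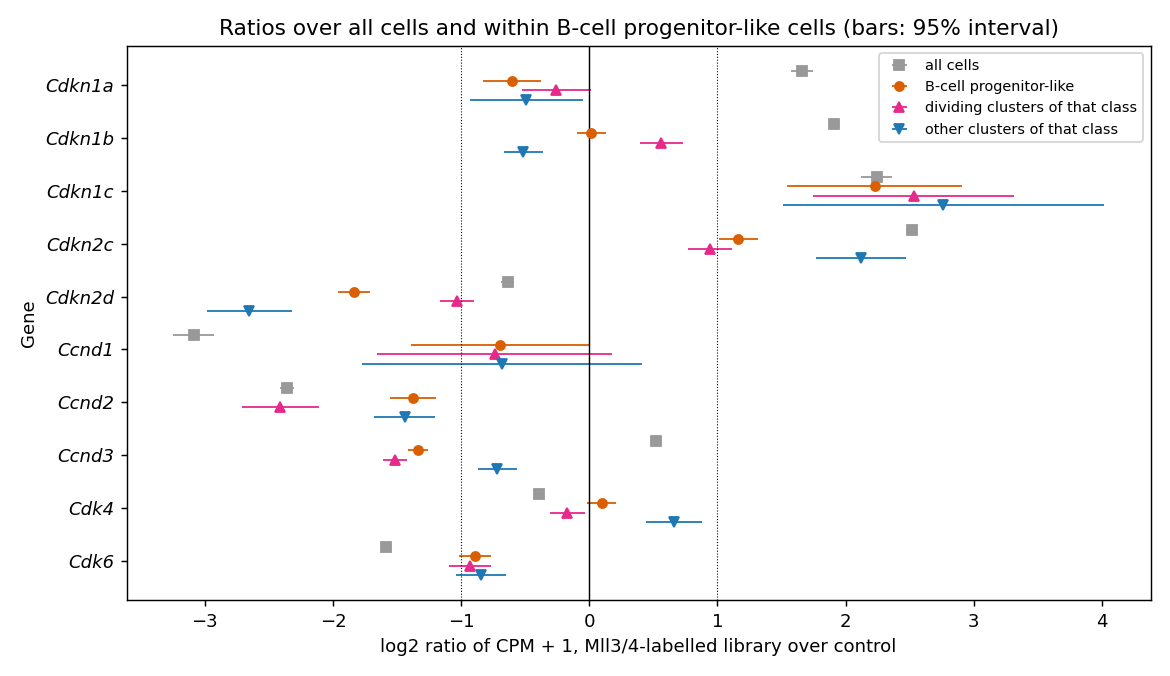
Log2 ratio of CPM + 1 of the Mll3/4-labelled library over control for each gene, over all cells (squares), in B-cell progenitor-like cells (circles) and in their dividing and other clusters (triangles), with bars for 95% counting intervals and dotted lines at 2-fold. Ccnd3 lies on opposite sides of 0 over all cells (0.52) and in the class (-1.34), and so does Cdkn1a (1.66 and -0.60), whose class ratio was 0.16 in cells thinned to 2000 UMIs and whose interval in dividing clusters includes 0.

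Dividing and other B-cell progenitor-like clusters were then taken apart, as levels of several of these genes are known to follow the cell cycle. Clusters whose 25 G2/M phase genes summed to at least 5000 CPM were called dividing (15, 24 and 25), a threshold chosen after the values had been seen. The S phase genes were not used, and their sums differ within a kind. Cluster 23, with 1509 Mll3/4-labelled cells called other, had 3374 CPM. Dividing clusters 15, 24 and 25 had 5002, 1043 and 3449 CPM. The 2 kinds may therefore hold unlike mixes of phases in the 2 libraries, which was not tested. The dividing clusters held 154 of the control and 1825 of the Mll3/4-labelled cells, and the others 317 and 5005. Median depths were 11115.5 and 13310 UMIs in dividing clusters, and 3415 and 9019 in the others. Class levels are UMI sums, so dividing clusters weigh more in the control sums than in the Mll3/4-labelled ones. Ratios of the pooled class carry this difference. Cdkn1a, at -0.60 in the pooled class, was at -0.26 (-0.52 to 0.01) in dividing and -0.49 (-0.93 to -0.05) in other clusters. In dividing clusters 4 members were at least 2-fold apart in the Mll3/4-labelled library, Cdkn1c higher and Cdkn2d, Ccnd2 and Ccnd3 lower, where 18.2% of genes were (13.2% higher, 5.05% lower). In the other clusters 4 were as well, Cdkn1c and Cdkn2c higher and Cdkn2d and Ccnd2 lower, where 22% of genes were (11.1% higher, 10.9% lower). Cdkn1c again passed as measured only through the Mll3/4-labelled sums.

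Cdkn2d was higher in dividing clusters of the control, at 267 CPM against 64.1 in the others. In the Mll3/4-labelled library the same pair was 130.5 and 9.34 CPM, and the ratios were -1.03 (-1.16 to -0.90) and -2.65 (-2.99 to -2.32). Cdkn2c in dividing and other clusters was at 144 and 49.8 CPM in control, and at 279 and 220.3 CPM in Mll3/4-labelled cells. Its excess was thus 2.12 (1.77 to 2.47) in the other clusters and 0.94 (0.77 to 1.12) in the dividing ones.

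Cdkn1b was lower in dividing than in other clusters of the control, at 155 against 271 CPM, and higher in dividing than in other clusters of the Mll3/4-labelled library, at 229 against 189 CPM. The ratios were 0.56 (0.39 to 0.73) and -0.51 (-0.67 to -0.36) in dividing and other clusters. Over the whole class the ratio was the 0.02 given above. Cdkn1c was at 4.69 CPM in dividing control clusters on 9 UMIs and 31.9 in the Mll3/4-labelled ones, a 6.80-fold ratio (3.57 to 14.9). In the other clusters it was at 0.791 CPM on 1 UMI and 11.2 CPM, a ratio of 14.1 with an interval of 2.52 to 558. Within the Mll3/4-labelled library Cdkn1c was highest in cluster 25 at 34.8 CPM, a dividing one, and lowest in cluster 21 at 9.26 CPM.

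Ccnd3 was at 572 CPM in dividing and 281 in other clusters of the control, and at 199 and 170.3 CPM in Mll3/4-labelled cells. The ratios were -1.52 (-1.61 to -1.43) and -0.72 (-0.87 to -0.57). Ccnd2 was at 61.5 and 119 CPM in control and 10.8 and 43.4 CPM in Mll3/4-labelled cells, with ratios of -2.41 and -1.44. Ccnd2 was further below control than Ccnd3 in both kinds of cluster. Of the D cyclin UMIs, Ccnd3 took 89.8% in dividing and 69.6% in other clusters of the control, and 94.2% and 79.1% in Mll3/4-labelled ones, with no overlap of intervals, unlike in the pooled class. Cdk6 was lower in both as well, by -0.93 and -0.84, and Cdk4 was at 243 and 135 CPM in control against 216 and 213 CPM. Dividing clusters of the Mll3/4-labelled library had G2/M and S phase sums of 11835 and 2921 CPM, and those of control 10876 and 5138 CPM. In the other clusters the S phase sum was 2472 CPM in Mll3/4-labelled and 2089.5 CPM in control cells. The part of these differences in the results was not tested.

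**Figure D4:**
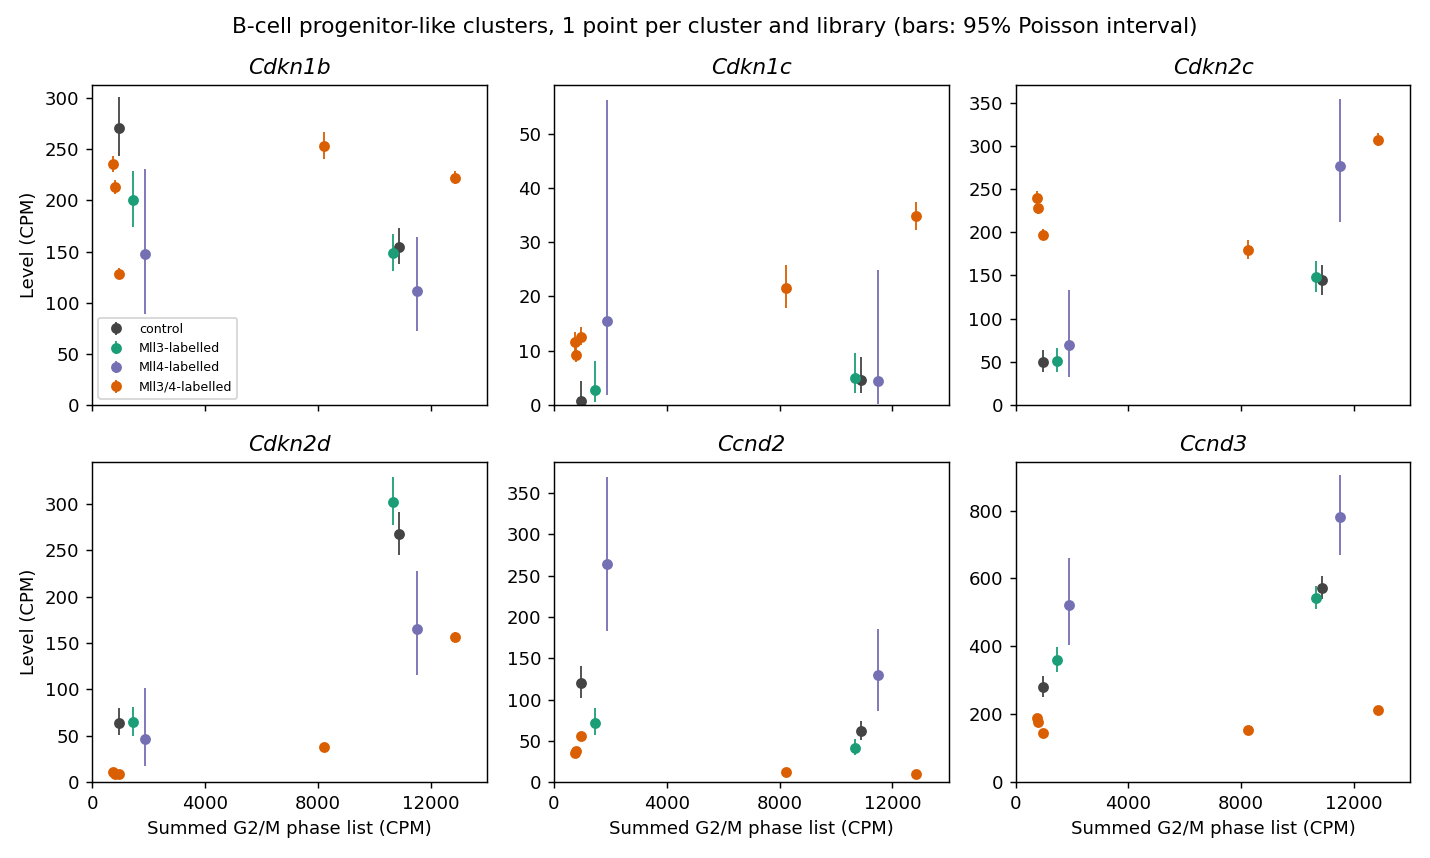
Level of 6 members (CPM, vertical axis) in each B-cell progenitor-like cluster and library with at least 50 cells, against the summed CPM of the 25 G2/M phase genes (horizontal axis), with bars for 95% Poisson intervals. Cdkn2d is higher at high G2/M sums in every library, and Ccnd3 lies between 146 and 212 CPM in all 5 Mll3/4-labelled clusters, below the 281 CPM of the lowest control cluster.

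Other genes of the pathway were counted in the same comparisons from fixed lists. Among 30 G1/S pathway genes, 7 were at least 2-fold higher and 4 lower in the Mll3/4-labelled library over all cells, and within B-cell progenitor-like cells 1 of 29 measured was higher and 1 lower. Of all genes 12% were higher and 11.7% lower over all cells, and 9.45% and 7.39% in the class, so the 4 lower genes over all cells and both counts in the class are near or under the share of all genes. These were Cdkn2a, the INK4 and ARF locus, with 2 UMIs in control (0.629 CPM) and 1065 in the Mll3/4-labelled class, and Ccna2, the S phase cyclin, at 202 and 81.2 CPM (-1.31). Cdkn2a was measured in the class only through the Mll3/4-labelled sum and could only be called higher there. Over all cells Cdkn2a was at 0.176 and 13.7 CPM. The E2F genes that stood out over all cells, with E2f2 at 21.9 and 179.5 CPM (2.98) and E2f7 at 10.3 and 28.3 CPM (1.38), were not 2-fold apart within the class. Mycn (-2.69), E2f4 (-1.52) and Myc (-1.23) were the genes furthest below control over all cells. The list medians were -0.02 over all cells and 0.00 in the class, beside all-gene medians of -0.01 and 0.02.

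Of 15 p53 target genes, 5 were higher and none lower over all cells, where 12% of all genes were higher and 11.7% lower. In B-cell progenitor-like cells 4 were higher and 1 lower, where 9.45% and 7.39% of all genes were, so the count lower is near that share. The list medians were 0.41 and 0.52. In the class Zmat3, an RNA-binding p53 target, was at 2.20 and 16.1 CPM (2.42, 1.68 to 3.16). Bbc3, which encodes the cell death protein Puma, was at 2.83 and 16.3 CPM (2.18). Phlda3, an inhibitor of Akt signalling, was at 5.03 and 24.1 CPM (2.06), while Gtse1, a G2 and S phase gene, was at 23.3 and 10.3 CPM (-1.10). Zmat3, Bbc3 and Phlda3 each passed as measured only through the Mll3/4-labelled sum. Cdkn1a, itself a p53 target, was at 49.7 and 32.4 CPM there.

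Among 11 FOXO and related regulators, Foxo1, a transcription factor of B-cell progenitors, was at 119.7 and 476 CPM in the B-cell progenitor-like class (1.98, 1.84 to 2.13). Tgfbr2, a TGF-beta receptor, was at 29.5 and 14.1 CPM (-1.01), and the other 7 measured genes stayed within 2-fold. Of all genes 9.45% were higher and 7.39% lower, so 1 list gene each way is near those shares. S phase genes were lower in 5 of 25 in the pooled class, where 7.39% of all genes were, among them Gins2 (-1.54), Uhrf1 (-1.54) and Rrm2 (-1.18), which act in replication, DNA methylation maintenance and nucleotide supply, and none was higher. The sum of the S phase genes was lower in dividing and higher in other clusters, as given above. In the pooled class G2/M genes were lower in 2 of 25, Bub1 (-1.11) and Birc5 (-1.10), a count near the 7.39% of all genes. The G2/M sum was 11835 CPM in dividing Mll3/4-labelled clusters and 10876 CPM in those of control. In the other clusters it was 843 and 958 CPM. Of 17 imprinted genes 9 were measured and 2 were higher, where 9.45% of all genes were, Grb10, a growth factor receptor adaptor with 1 control UMI (0.314 CPM) and 19.3 CPM in Mll3/4-labelled cells, and Ndn, with no control UMI and 2.87 CPM. Both were measured only through the Mll3/4-labelled sum, so neither could have been called lower. Of the 9 genes linked with stem cell quiescence 5 were measured and 3 were higher, against the same 9.45%, with Gata3, a lymphoid transcription factor, at 1.57 and 14.4 CPM (2.58). Gata3 too was measured only through the Mll3/4-labelled sum.

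The HSC/MPP-like class allowed control, Mll3-labelled and Mll4-labelled cells to be compared. By the rule with 1 CPM added, none of the 10 members was 2-fold apart in either library, where 0.898% and 6.26% of all genes measured were. Cdkn1c came closest. It was at 16.4 CPM (14.8 to 18.2), 7.97 CPM (6.64 to 9.48) and 12.0 CPM (8.52 to 16.4) in control, Mll3- and Mll4-labelled cells. The Mll3-labelled interval does not overlap that of control, and its log2 ratio was -0.96 (-1.22 to -0.70). The 1 CPM added to both levels keeps this ratio under 2-fold, which the levels themselves just pass. Both hashtags, antibody tags whose meaning the labels do not give, showed the same order, with 15.3 and 17.7 CPM in control against 8.20 and 7.41 CPM in Mll3-labelled cells. In cells thinned to 2000 UMIs a Cdkn1c UMI was found in 3.82% of control cells (2.89 to 4.94), 2.03% of Mll3-labelled cells (1.26 to 3.09) and 2.57% of Mll4-labelled cells (1.41 to 4.28), against 0.285% of control neutrophil-like cells, and the first 2 intervals overlap. Unthinned the shares were 16.9, 9.86 and 6.70% at median depths of 14153, 14088 and 5525 UMIs. Over the alternatives the control level ran from 15.3 to 31.7 CPM, the last with the 10 genes kept in the clustering, and the Mll3-labelled ratio from -1.15 to -0.56.

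In Mll3-labelled cells the other members lay nearer to control, and in Mll4-labelled cells Cdkn2d lay furthest from it. Ccnd1 was at 56.5, 40.4 and 50.1 CPM in control, Mll3- and Mll4-labelled cells, and the Mll3-labelled ratio was -0.47 (-0.61 to -0.34). Cdkn2d was at 44.8, 52.1 and 24.6 CPM, lowest in Mll4-labelled cells at -0.84 (-1.16 to -0.52), which trimmed mean scaling turned into -1.06. Ccnd2 was at 229, 225 and 301 CPM and Cdk6 at 411, 371 and 494 CPM, both highest in the Mll4-labelled library, by 0.39 and 0.26. All genes of that comparison had a median of 0.15, and trimmed mean scaling shifted its ratios by 0.23, which put Cdk6 at 0.03. Cdkn1b was at 69.5, 67.8 and 61.4 CPM and Cdkn2c at 37.9, 37.4 and 38.4 CPM, with intervals of each ratio that include 0. Of the 28 measured G1/S pathway genes 3 were 2-fold higher in the Mll4-labelled library, where 6.26% of all genes were apart in either direction. They were Tfdp1, an E2F partner at 90.6 and 258.9 CPM, Ccne2 (1.49), a cyclin E, and E2f3 (1.23). The shift of 0.23 applies to them too, and E2f3 is past 2-fold by less than that. None was 2-fold higher in the Mll3-labelled library. The S phase genes summed to 3124, 3058 and 4409 CPM, and their part in these values was not tested.

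The surface antibodies split the HSC/MPP-like class further. Cells positive for CD150 and negative for CD48 are the gate in which long-term stem cells are usually sought. Cdkn1c in this gate was at 54.4 CPM (149 cells, 43.9 to 66.7) for control, 26.0 (168 cells, 19.6 to 33.9) for Mll3-labelled and 38.3 (80 cells, 21.4 to 63.1) for Mll4-labelled cells. In the CD150- CD48+ gate it was at 10.1, 3.48 and 3.92 CPM. The first gate thus held more Cdkn1c than the second in all 3 libraries, and the Mll3-labelled ratio was -1.04 in the first and -1.32 (-1.71 to -0.92) in the second. The Mll4-labelled ratio was -0.50 (-1.26 to 0.27) in the first and -1.18 (-1.95 to -0.40) in the second, the latter on 9 Mll4-labelled UMIs. G2/M phase genes in the first gate summed to 1361 CPM in control, 2092 in Mll3-labelled and 2189 in Mll4-labelled cells. The part of this in the Cdkn1c values was not tested. The share of all genes past 2-fold was not computed for these gates.

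Cdk6 ran the other way across the gates. It was at 167 CPM in CD150+ CD48- and 442 in CD150- CD48+ cells of the control, and at 166 and 418 CPM in Mll3-labelled cells. In Mll4-labelled cells it was at 342 and 539.6 CPM, a ratio of 1.03 (0.74 to 1.33) in the CD150+ CD48- gate. Trimmed mean scaling, which shifted ratios of the whole class by 0.23, was not run for the gates. Median depth in this gate was 11098 UMIs in control and 4564 in Mll4-labelled cells. The antibody thresholds were set in control and not scaled, so the gates may not match between libraries. S phase genes in that gate summed to 1763, 2267 and 3694 CPM for the 3 libraries, and the part of this in the Cdk6 value was not tested. Ccnd2 was higher in the CD150+ CD48- gate than in CD150- CD48+ cells, at 374 and 212 CPM for control, 394 and 192 for Mll3-labelled and 439 and 263 for Mll4-labelled cells. Cdkn1a had 4 control UMIs in the CD150+ CD48- gate (2.34 CPM), 21 Mll3-labelled ones (9.94 CPM) and no Mll4-labelled one, which allows up to 7.65 CPM. The Mll3-labelled ratio was 1.71 (0.57 to 2.85). In CD150- CD48+ cells the same ratio was -0.29 (-0.56 to -0.03), on 292 control and 155 Mll3-labelled UMIs. In the CD150+ CD48+ gate there were 5 and 2 UMIs, too few to measure. Over all kept cells that were also positive for CD117 and Sca1, chosen as a check after the values were seen, Cdkn1c was at 44.2, 23.0 and 28.6 CPM. In the Mll3/4-labelled library that gate held 154 cells, of which 1.30% were HSC/MPP-like, so its 25.2 CPM does not describe the same cells.

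**Figure D5:**
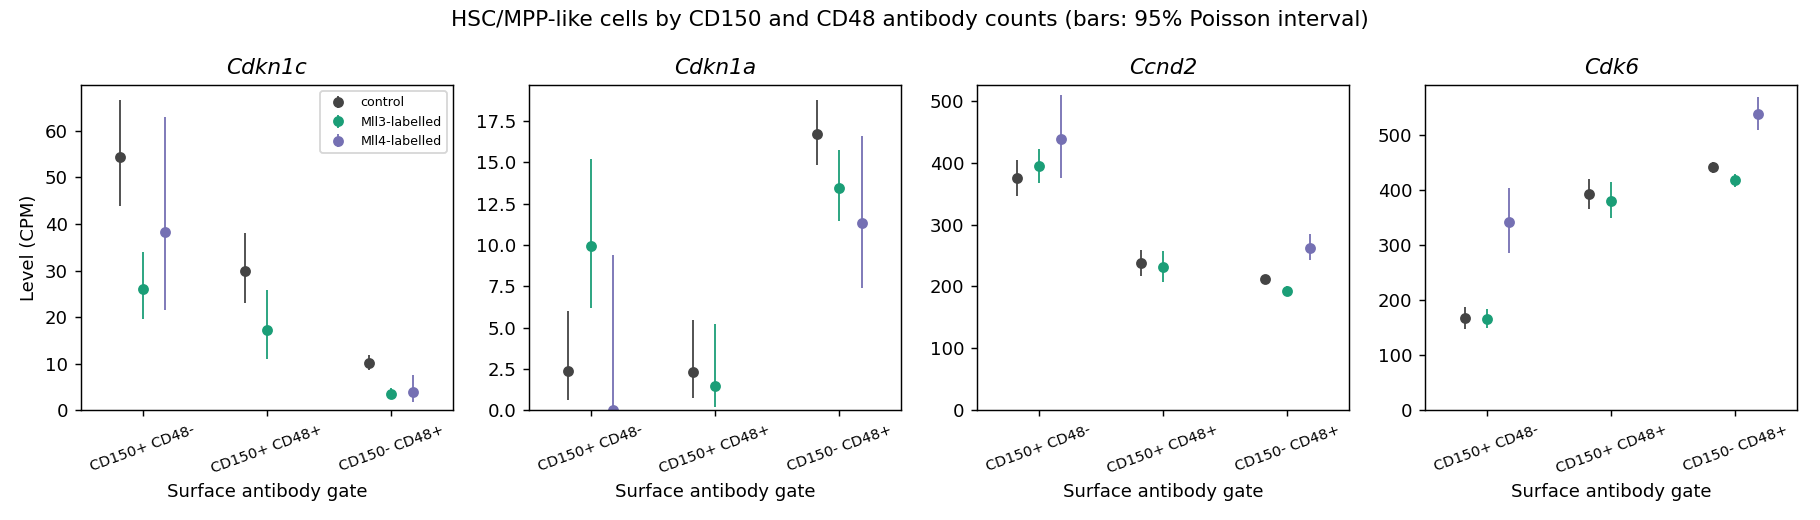
Level of Cdkn1c, Cdkn1a, Ccnd2 and Cdk6 (CPM) in HSC/MPP-like cells split by CD150 and CD48 antibody counts, for the 3 gates with at least 50 control cells, with 1 point per library and bars for 95% Poisson intervals. Cdkn1c is lower and Cdk6 higher in the CD150- CD48+ than in the CD150+ CD48- gate, and the Mll3-labelled Cdkn1c points lie below control in the 3 gates plotted.

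Across the other classes the Mll3-labelled library stayed close to control. Over all cells none of the 10 members was 2-fold apart (0.667% of genes were), and 8 had intervals below 0, from Cdkn1c at -0.43 to Cdk6 at -0.10. No share of all genes with intervals below 0 is given, so the count of 8 has no background. The median ratio was -0.19 for the members and -0.04 for all genes. The neutrophil-like class was 24.9% of control and 17.5% of this library, and the part of makeup in these ratios was not tested. Ccnd2 was lower in 7 of 8 classes (-0.67 to 0.22) and Ccnd1 in 6 of 6 measured (-1.46 to -0.16). The -1.46 was in granulocyte progenitor-like cells, where 0.964% of genes were 2-fold apart, with 18.1 CPM in control and 5.94 CPM in Mll3-labelled cells. Cdkn1a in megakaryocyte-like cells was at 4.66 and 10.4 CPM (1.02, 0.65 to 1.38), where 1.57% of genes were apart.

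In the Mll4-labelled library 1 member, Cdkn2c, was 2-fold apart over all cells, at 1.05 (8.64% of genes), and Cdkn2d was higher by 0.50. Within classes Cdkn2d was lower in 8 of 8 (-1.33 to -0.38), also with trimmed mean scaling (-1.54 to -0.54). It was at 333 and 244 CPM in neutrophil-like cells of control and this library, which numbered 1782 and 2687 and lay mostly in clusters 12 and 13 for control and 14 and 16 for the Mll4-labelled library. In megakaryocyte-like cells, where 7.23% of genes were 2-fold apart, Cdkn2d was at 91.5 and 35.8 CPM (-1.33). Ccnd3 was higher in 8 of 8 classes (0.17 to 0.66) and in 7 of 8 with trimmed mean scaling (-0.04 to 0.39). Cdk6 was higher in 7 of 8 classes in CPM but in 2 of 8 with that scaling. Ccnd1 in monocyte/macrophage progenitor-like cells, where 9.53% of genes were apart, was at 45.7, 38.8 and 9.27 CPM in control, Mll3- and Mll4-labelled cells, with a Mll4-labelled ratio of -2.19 (-2.71 to -1.67). In granulocyte progenitor-like cells (8.66%) it was at 18.1 and 6.48 CPM (-1.35). Dendritic cell-like cells, with 103 cells in the Mll4-labelled library and 1 in control, had 391 CPM of Ccnd1. Within B-cell progenitor-like cells of this library Ccnd2 alone was 2-fold apart, at 1.06 (0.66 to 1.45) where 16.7% of genes were. With trimmed mean scaling its ratio was 0.81, under 2-fold. In the Mll3-labelled library none of 8 measured members was 2-fold apart in this class, where 2.31% of genes were.

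Likeness to other genes was taken as Pearson's r of log2(CPM + 1) over the 28 sums of a class in a library, for 12673 genes, as a description only, since sums share libraries and depth. Closest to Cdkn1b were Btg2 (0.93), Ralgps1 (0.92) and Trp53inp1 (0.91), and closest to Cdkn1a were Hist1h2bf (0.80), Hist1h2bp (0.78) and Tedc1 (0.76). Among the genes closest to Cdkn1c were Sgce (0.86) and Elf2 (0.82). Cdkn2c lay nearest to Smtn (0.89), Hist1h4d (0.88) and Mxd3 (0.87), and Cdkn2d to Hist1h1c (0.86), Rdm1 (0.86) and Ing1 (0.85). Among the cyclins, Ccnd1 lay nearest to Pex11a (0.88), Avpi1 (0.86) and Cfap410 (0.85), Ccnd2 to Dph5 (0.94), Atr (0.94) and Hacd3 (0.93), and Ccnd3 to Tmcc1 (0.90), Nfyb (0.88) and Sipa1 (0.87). Cdk4 lay nearest to Glrx3, Nop10 and Hsp90ab1 (each 0.98) and Cdk6 to Kctd1, Mesd and Rsad1 (each 0.93).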

How the data were processed

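The deposited values are whole-number UMI counts per gene and cell, made by the authors with Cell Ranger 6.1.2 on mm10, per the submitters' processing notes, and not normalized. Whether counting used strand and how cells were called are not given in the sources used here. The count tables also hold 15 antibody features. Each library had 10001, 9491, 6622 and 8284 barcodes in the order control, Mll3-, Mll4- and Mll3/4-labelled.

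Cells were kept with at least 500 genes, 1000 UMIs and at most 10% mitochondrial UMIs. The highest Scrublet scores were removed as doublets at 0.8% per 1000 barcodes (scanpy 1.11.5). Cells of all libraries were clustered together on 2000 variable genes and 30 components (Leiden, resolution 1), without the 10 genes reported, Xist, Y-linked or mitochondrial genes. Clusters were named from fixed markers. Counts were not corrected for free RNA. Counts were summed per class and library for classes with at least 50 cells and given as CPM with exact Poisson 95% intervals. Ratios used a pseudocount of 1 CPM, which understates the change of low genes, with intervals from the counting error of both sums. Shares of cells have exact Clopper-Pearson intervals, and a count of 0 is given with the limit of 3 UMIs in the text and the Poisson bound in the plots. Antibody thresholds came from a mixture of 2 Gaussians in control and were used unscaled in every library. The code was tested on simulated data.

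All 10 members were named, with up to 3 genes per direction from each list and the 3 genes most like each member, of which 1 is not reported here. Members, lists and markers were chosen with earlier results of these data known. Gene positions are from GENCODE M21 on GRCm38.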

Additional observations from a re-analysis of the deposited data

Results flagged for a closer look

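A few ratios to control were at least 0.5 in size and opposite in sign between kinds of cell of the same library, with intervals on opposite sides of 0. The difference between the kinds of cell was not tested in any of them. Cdkn1a in the Mll3-labelled library had a log2 ratio of 1.02 in megakaryocyte-like cells and -0.65 in granulocyte progenitor-like cells. Cdkn1c in the Mll3-labelled library was at 0.53 in erythroid progenitor-like cells, where it was at 0.181 CPM in control, and at -0.96 in HSC/MPP-like cells. Cdkn1b in the Mll3/4-labelled library was at 0.56 in the dividing and -0.51 in the other clusters of B-cell progenitor-like cells.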

How the results depend on the processing

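No paired analysis was possible because each group has 1 library. Of 200 ratios of the 10 members to control, 21 were at least 2-fold, and all 21 kept their sign under every alternative run, while 112 of all 200 did. The number of members at least 2-fold apart in the Mll3/4-labelled library was 7 to 8 over all cells (7 as reported) and 4 to 6 in B-cell progenitor-like cells (5 as reported). In the Mll4-labelled library over all cells, 1 as reported, it was 0 with trimmed mean scaling, a pseudocount of 10 CPM, the mean over cells, cells thinned to 2000 UMIs or the first hashtag alone, and 2 with the second hashtag alone. In Mll3-labelled HSC/MPP-like cells, 0 as reported, it was 1 with a pseudocount of 0.1 CPM, with cells of both hashtags removed or with the second hashtag alone. In Mll4-labelled HSC/MPP-like cells, 0 as reported, it was 1 with trimmed mean scaling, cells of both hashtags removed, a stricter cell filter, Leiden resolution 2 or the phase lists left out of clustering, and 2 with the second hashtag alone or another Leiden seed. The cause was not tested. Cdkn1c in Mll4-labelled HSC/MPP-like cells ranged from -1.87 at resolution 2 to -0.17 with another seed. Cdkn2d over all cells of the Mll3/4-labelled library was -1.41 in cells thinned to 2000 UMIs against -0.64. The alternatives that take dividing or other clusters alone, subtract the neutrophil-like profile or use the gate over all kept cells were chosen after seeing the data. Depth limits the Mll4-labelled library most, with 143 B-cell progenitor-like cells at a median of 2276 UMIs.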
